A study of Homo sapiens with 36 samples.

Results

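The comparison described here is that of 42D prostate cancer cells carrying the guide sgT33-5 with 42D cells carrying NT3, both without androgen. The members are all genes of the deposited count table in 6 of its 36 libraries, which are the 3 libraries of sgT33-5 with DMSO and the 3 of NT3 with DMSO. The table names 61805 genes, and 15403 of them passed the filter on low counts and were tested.

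LNCaP is an androgen-dependent human line from a lymph node metastasis of a prostate cancer, and 42D was derived from LNCaP tumours and resists the antiandrogen enzalutamide. The 42D sgT33-5 and 42D NT3 lines were given either the solvent DMSO or R1881, a synthetic androgen, at 5 nM for 6 h, as were the LNCaP sgT33-5 and LNCaP NT3 lines that are set beside them. The LNCaP lines sgT33-5_MC_C2 and sgT33-5_MC_F2, treated in the same way, entered the fits with LNCaP but are not described here. The labels do not expand sgT33-5 and NT3, which are taken here, given what the title names, for a CRISPR guide to TRIM33 and a control guide without a target. The growth protocol, which names LNCaP alone, gives 3 days in hormone-stripped serum before treatment, so both 42D groups compared here are read as androgen-deprived. The labels do not say whether a line is a pool or a clone, or whether its 3 replicates were separate cultures, so p-values measure the spread between these samples. In each cell line an sgT33-5 line is compared with an NT3 line, so the guide cannot be told apart from other differences between the lines.

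TRIM33, also called TIF1-gamma, is an E3 ubiquitin ligase of chromatin that belongs to the same family as TRIM24 and TRIM28. It reads marks on histone H3 through a PHD finger and a bromodomain, binds SMAD2 and SMAD3, and can ubiquitinate SMAD4 in TGF-beta signalling. Androgens drive luminal prostate genes such as KLK3, which encodes prostate-specific antigen. Per its title, the series links loss of TRIM33 to a reduced transcriptional response to androgen and reduced ubiquitination of histone H2B at lysine 120, and the comparison without androgen shows what the guide line looks like before androgen is added.

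The 6 libraries held 14035066 to 16546275 counts each. Between replicates of a 42D group the chi-square per gene was 2.95 to 4.66, where counting error alone gives about 1, so no pair agreed within counting error. All 12 luminal prostate markers were tested, with summed levels of 4200 to 4340 CPM (counts scaled to a common library size) in sgT33-5 and 4040 to 4410 CPM in NT3. Of 3 basal and 5 leukocyte markers none passed the filter, and the leukocyte sums were 0.362 to 0.99 CPM in sgT33-5 and 0.435 to 0.716 CPM in NT3. The fibroblast sums were 28.8 to 34.2 CPM in sgT33-5 and 25.1 to 32.7 CPM in NT3. The endothelial sums were 0.418 to 0.742 CPM in sgT33-5 and 0.995 to 1.66 CPM in NT3, nearly all VWF, which had 24 counts in sgT33-5 and 59 in NT3, while PECAM1 was at 0. The neuroendocrine sums were 43.4 to 47.2 CPM in sgT33-5 and 35.6 to 35.7 CPM in NT3, mostly from NCAM1, while INSM1 and NEUROD1 had 0 counts. Mitochondrially encoded transcripts made up 4.16% to 4.59% of counts in sgT33-5 and 2.94% to 3.32% in NT3, so the groups did not overlap in this share. The part of that difference in the results below was not tested beyond the values given for it.

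The promoters of 3 genes are shown because their genes rose together with their neighbours on the chromosome. Each runs from 250 bases before to 50 bases after the RefSeq start on GRCh38.p14, 5′ to 3′ on the strand of the gene, and capitals mark the SMAD-binding motif CAGACA on either strand. NKAIN1 lies at chr1:31239838-31240137 on the minus strand, SERINC2 at chr1:31409527-31409826 on the plus strand and ZBTB43 at chr9:126804790-126805089 on the plus strand.

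NKAIN1: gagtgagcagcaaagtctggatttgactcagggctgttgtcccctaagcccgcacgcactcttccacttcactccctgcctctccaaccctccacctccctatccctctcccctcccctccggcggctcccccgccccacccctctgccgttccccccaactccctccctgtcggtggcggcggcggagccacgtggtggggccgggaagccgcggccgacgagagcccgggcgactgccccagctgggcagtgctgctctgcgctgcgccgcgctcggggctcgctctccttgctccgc

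SERINC2: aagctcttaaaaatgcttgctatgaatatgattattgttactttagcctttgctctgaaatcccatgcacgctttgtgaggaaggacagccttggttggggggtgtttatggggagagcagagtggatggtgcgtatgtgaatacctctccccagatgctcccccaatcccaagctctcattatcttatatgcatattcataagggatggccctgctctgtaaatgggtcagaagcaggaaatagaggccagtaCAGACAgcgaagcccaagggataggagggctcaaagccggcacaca

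ZBTB43: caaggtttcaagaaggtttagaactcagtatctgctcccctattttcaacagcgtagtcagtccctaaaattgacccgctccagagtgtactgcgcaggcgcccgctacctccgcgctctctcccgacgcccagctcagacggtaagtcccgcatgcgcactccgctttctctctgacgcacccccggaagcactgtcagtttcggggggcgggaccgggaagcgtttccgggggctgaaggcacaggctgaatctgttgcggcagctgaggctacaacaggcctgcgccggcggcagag

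CAGACA occurs once, in the SERINC2 window, and in 16.8% of 27305 RefSeq promoters of this length. The palindrome GTCTAGAC, at 0.201% of promoters, and the steroid hormone response motif AGAACA, at 14.9%, occur in none of the 3 windows. A match is a description of letters and not of a bound site.

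TRIM33 fell in the guide line. The gene (ENSG00000197323, GRCh38 chromosome 1, 114392790 to 114511203) had 60.0, 57.8 and 54.7 CPM in the sgT33-5 libraries, against 85.1, 79.0 and 88.7 CPM in the NT3 libraries. Every sgT33-5 library lay below every NT3 library. The log2 fold change was -0.55 with a standard error (SE) of 0.0523, at an adjusted p of 2.88e-06 by the quasi-likelihood test of edgeR with Benjamini-Hochberg adjustment over all 15403 genes, which gives every adjusted p below unless stated. Without any 1 library the value was between -0.60 and -0.51 and remained called. Transcript counts do not measure the TRIM33 protein, and in bulk RNA fewer cells with a transcript cannot be told apart from less of it per cell. The related TRIM24 and TRIM28 had log2 fold changes of -0.01 and -0.01 and were not called, with 95% intervals of -0.11 to 0.09 and -0.10 to 0.08.

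**Figure D1:**
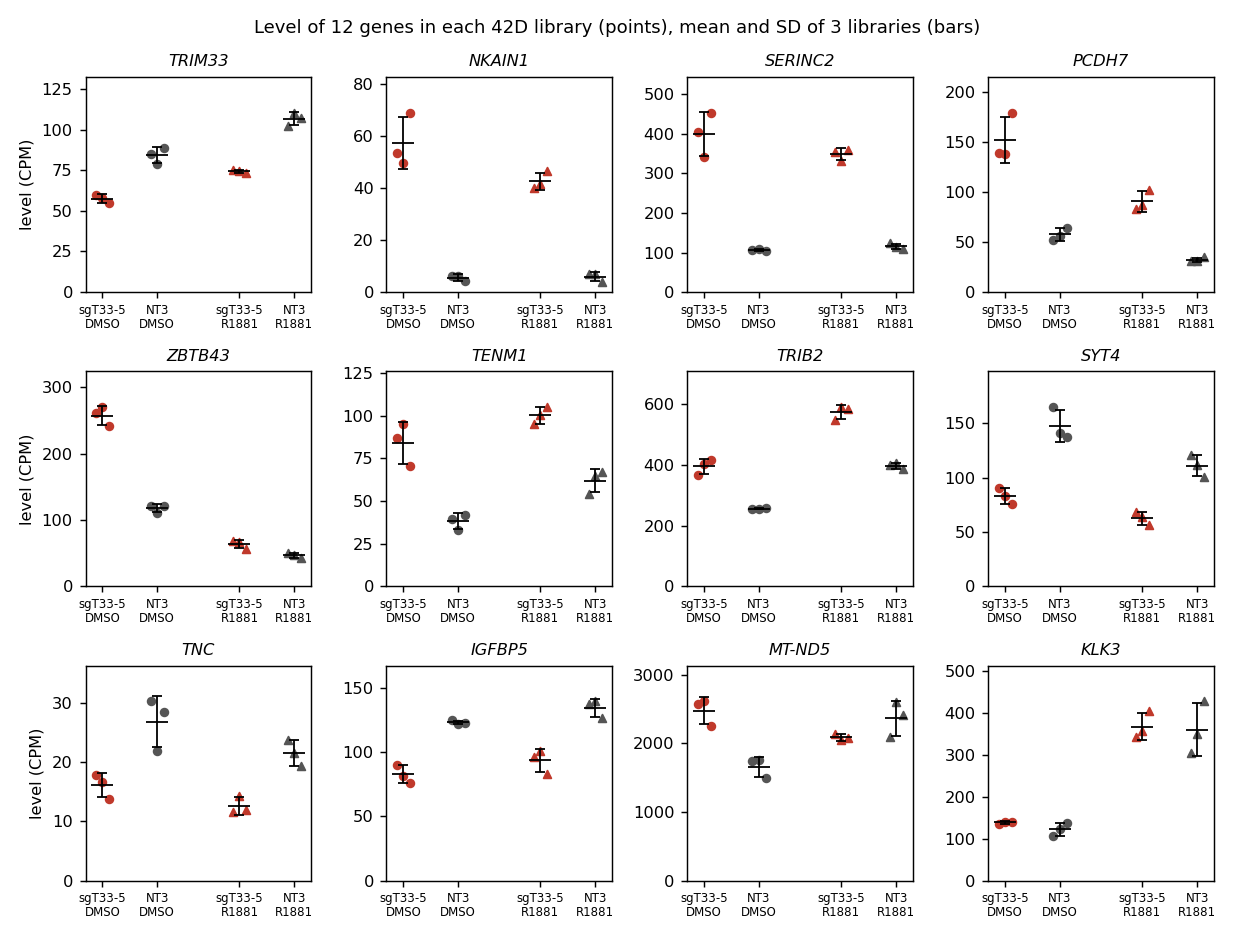
Levels in CPM of 12 genes in each of the 12 42D libraries (points), with the mean and SD of 3 libraries (bars), for sgT33-5 and NT3 with DMSO and then with R1881. With DMSO the sgT33-5 and NT3 libraries do not overlap for any gene shown except KLK3, which had 135 to 141 CPM in sgT33-5 and 107 to 138 CPM in NT3 and was not called.

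With DMSO, 174 genes were called at an adjusted p under 0.05, which is 1.13% of the genes tested. Of these, 138 were higher in sgT33-5 (0.896% of the genes tested) and 36 were lower (0.234%), so 79.3% of the calls were increases. In all 174 the 3 sgT33-5 and 3 NT3 libraries did not overlap, as in 2215 (14.4%) of the genes tested. A change of at least 2-fold was reached by 19 of the higher genes and 1 of the lower genes, and over all genes the median absolute log2 fold change was 0.07. The higher genes held 123 that code for protein and 11 long non-coding RNAs, and the 36 lower genes all code for protein. The count rests on single libraries: it was 75 without sgT33-5 replicate 1, 66 without sgT33-5 replicate 2, 71 without NT3 replicate 1 and 77 without NT3 replicate 3, against 244 without sgT33-5 replicate 3 and 177 without NT3 replicate 2. With the mitochondrial share of each library as an added term, an alternative chosen after the data were seen, 3 genes were called and all were higher (SERINC2, TRIB2 and ZBTB43).

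**Figure D2:**
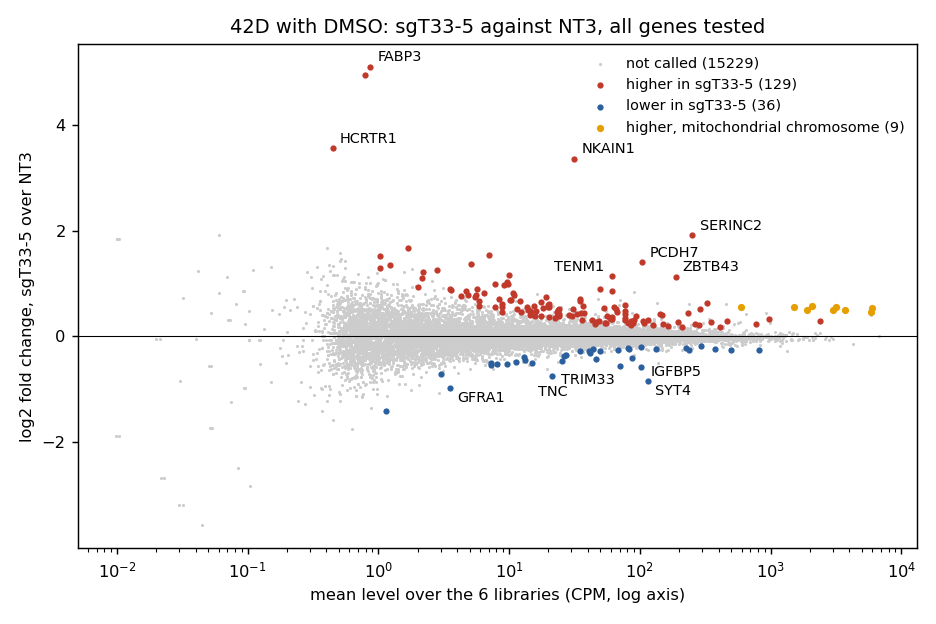
Log2 fold change (sgT33-5 over NT3, with DMSO) against the mean level over the 6 libraries in CPM on a log axis, 1 point per gene tested. The 129 higher genes outside the mitochondrial chromosome, the 9 higher genes on it and the 36 lower genes are coloured, and NKAIN1 (3.36) and SERINC2 (1.92) stand above the other called genes of their level.

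A stretch of chromosome 1 held several of the highest fold changes. SERINC2, a membrane protein of the serine incorporator family (ENSG00000168528, 31409565 to 31434680), had 405, 341 and 452 CPM in sgT33-5, against 105, 109 and 103 CPM in NT3. NKAIN1, a membrane protein that binds a subunit of the sodium-potassium pump (ENSG00000084628, 31179745 to 31239887), had 53.4, 49.7 and 68.8 CPM in sgT33-5, against 6.33, 6.23 and 4.23 CPM in NT3. Neither pair of groups overlapped, and the log2 fold changes were 1.92 (SE 0.0858, adjusted p = 1.38e-07) for SERINC2 and 3.36 (SE 0.201, adjusted p = 1.25e-05) for NKAIN1. FABP3, the heart-type fatty acid binding protein, lies between them and was nearly silent in NT3, with 27, 22 and 35 counts in the sgT33-5 libraries and 0, 1 and 1 counts in the NT3 libraries. Its ratio of summed, scaled counts was 40.1, with an exact 95% interval of 10.8 to 337 that covers counting error only. HCRTR1, an orexin receptor, had 19, 11 and 11 counts in sgT33-5 and 2, 1 and 0 counts in NT3, a ratio of 13.1 (4.17 to 65.9). It remained called without each library but NT3 replicate 3, where its adjusted p was 0.0513. TINAGL1, a secreted matrix protein, averaged 10.4 ± 1.19 CPM in sgT33-5 and 3.62 ± 1.16 CPM in NT3 (SD, n = 3 each; log2 fold change 1.53, SE 0.192).

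The call extended to neighbours, some with smaller changes. From the start of ZCCHC17 to the end of HCRTR1 (31296982 to 31632518), 5 tested genes in a row were higher, namely ZCCHC17 (0.52), an RNA-binding zinc-knuckle protein, FABP3, SERINC2, TINAGL1 and HCRTR1. FABP3 and HCRTR1 passed the filter on low counts through the sgT33-5 libraries alone and could enter the test only as higher genes, so the length of the run rests in part on the filter. After PEF1, which had a log2 fold change of 0.03 and was not called, a run of 3 followed from 31652263 to 31944856. It held the collagen gene COL16A1 (0.99), the adhesion receptor gene ADGRB2 (0.59) and the phosphatase gene PTP4A2 (0.18). Of 32 tested genes that start within 1000 kb of SERINC2, 10 were higher and 0 lower, and 6 of the 10 were also higher with R1881. These counts include FABP3 and HCRTR1 and also SERINC2, on whose high value the window was centred, and they are a description. PTP4A2 was called with all libraries and without sgT33-5 replicate 3, but without any other single library its adjusted p was 0.0560 to 0.175. FAM229A (0.71), near the edge of the window, lies wholly within other annotated genes, as does 60.9% of TINAGL1, and the strand setting of the authors' counting is not given in the sources used here, so their reads may be shared. Over all of chromosome 1, 35 of 1592 tested genes were called (2.2%).

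A shorter run lay on chromosome 9. ZBTB43, a zinc finger and BTB domain transcription factor (ENSG00000169155, 126805006 to 126838210), had 261, 270 and 241 CPM in sgT33-5, against 121, 111 and 122 CPM in NT3. The groups did not overlap, and the log2 fold change was 1.13 (SE 0.0655, adjusted p = 5.35e-08). Its neighbours LMX1B, a LIM homeobox transcription factor, and ZBTB34, another zinc finger and BTB domain factor, rose by 0.53 and 0.56 on the log2 scale, and the 3 genes span 126613928 to 126885878. LMX1B averaged 62.8 CPM in sgT33-5 and 43.4 CPM in NT3, and ZBTB34 75.7 CPM in sgT33-5 and 51.4 CPM in NT3. None of the other 15 tested genes that start within 1000 kb of ZBTB43 was called. The nearest of them, RALGPS1, had a log2 fold change of 0.26 at an adjusted p of 0.129.

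**Figure D3:**
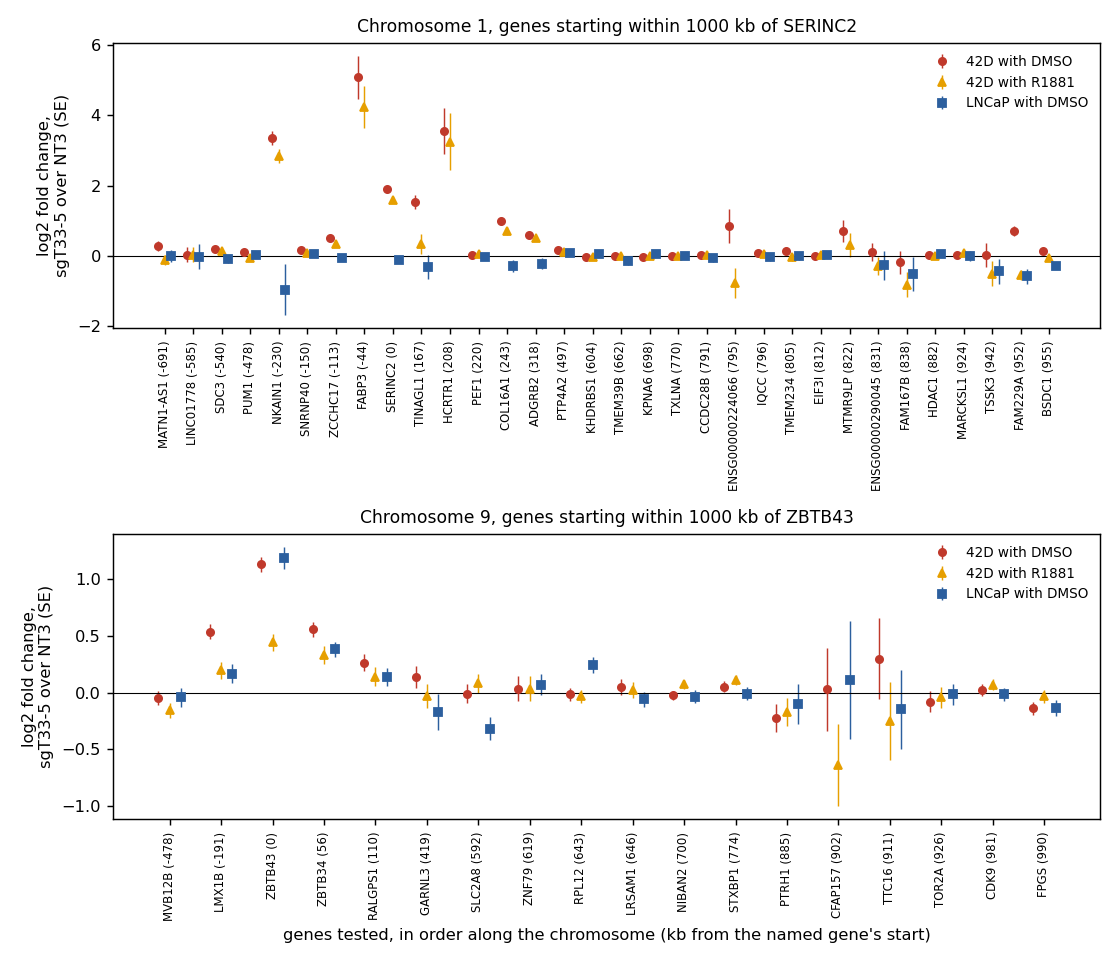
Log2 fold change (sgT33-5 over NT3) with its SE for every tested gene that starts within 1000 kb of SERINC2 (top) and of ZBTB43 (bottom), in order along the chromosome, in 42D with DMSO, 42D with R1881 and LNCaP with DMSO. In 42D, 10 genes of the upper stretch were called with DMSO, where 1.13% of all genes were. In LNCaP 0 of 28 tested there were called, where 1.4% of all genes were, and FABP3 and HCRTR1 were not tested. ZBTB43 rose in both cell lines (1.13 and 1.19 with DMSO).

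Among the other higher genes were cell-surface and adhesion proteins. PCDH7, a protocadherin (ENSG00000169851), had 139, 138 and 179 CPM in sgT33-5, against 52.2, 56.3 and 64.4 CPM in NT3. The log2 fold change was 1.40 (SE 0.123, adjusted p = 0.000327), and the groups did not overlap. PCDH7 was the 1 called member of 20 tested cadherins and protocadherins, where 1.13% of all genes were called. The list had a median of 0.08 where that of all genes was 0.00. TENM1, a teneurin, averaged 84.1 ± 12.4 CPM in sgT33-5 and 38.2 ± 4.82 CPM in NT3 (log2 fold change 1.14). LRRTM4, a synaptic leucine-rich repeat protein, averaged 78.6 ± 9.73 CPM in sgT33-5 and 43.4 ± 1.99 CPM in NT3 (0.86). The cell adhesion molecule NCAM1 averaged 37.8 ± 1.7 CPM in sgT33-5 and 28.0 ± 1.23 CPM in NT3 (0.43). TRIB2, a pseudokinase of the tribbles family that R1881 raised in LNCaP NT3, had 367, 403 and 415 CPM in sgT33-5, against 254, 256 and 259 CPM in NT3. Its change of 0.62 had the smallest SE of the genes in this paragraph, 0.0464, and an adjusted p of 7.6e-08.

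Signalling and regulatory genes followed. GNAI1, an inhibitory G protein alpha subunit, averaged 7.37 ± 0.459 CPM in sgT33-5 and 2.85 ± 0.225 CPM in NT3, a log2 fold change of 1.37. The gamma subunit gene GNG13 averaged 10.4 ± 1.23 CPM in sgT33-5 and 5.26 ± 1.1 CPM in NT3 (0.998), and it lies wholly within other annotated genes. GALNT17, of the family that starts mucin-type O-glycans, averaged 13.9 ± 1.5 CPM in sgT33-5 and 6.24 ± 0.809 CPM in NT3 (1.16). DOK6, a docking protein of receptor tyrosine kinases, averaged 64.2 ± 7.74 CPM in sgT33-5 and 34.5 ± 3.63 CPM in NT3 (0.90). TLE4, a Groucho-type corepressor, averaged 13.0 ± 0.562 CPM in sgT33-5 and 6.4 ± 0.885 CPM in NT3 (1.03). The long non-coding RNA CEROX1, 95.2% of whose span other genes cover, averaged 12.1 ± 0.151 CPM in sgT33-5 and 6.17 ± 0.163 CPM in NT3 (0.98). All 6 calls remained without any 1 library. KRTCAP2 was called at 0.89, but other genes cover its span almost entirely and the call ended without any 1 library other than sgT33-5 replicate 3 (adjusted p = 0.0627 to 0.226).

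The lower genes changed less. SYT4, a synaptotagmin of secretory vesicles (ENSG00000132872), had 90.7, 82.8 and 75.7 CPM in sgT33-5, against 165, 141 and 138 CPM in NT3. IGFBP5, a secreted binding protein of insulin-like growth factors (ENSG00000115461), had 90.1, 81.4 and 76.2 CPM in sgT33-5, against 125, 122 and 123 CPM in NT3. TNC, the matrix protein tenascin C, had 17.8, 16.7 and 13.8 CPM in sgT33-5, against 30.2, 21.9 and 28.4 CPM in NT3. No groups overlapped, and the log2 fold changes were -0.83 (SE 0.0948) for SYT4, -0.58 (SE 0.0668) for IGFBP5 and -0.74 (SE 0.122) for TNC, whose whole span is covered by other annotated genes. IGFBP5 was the 1 called member of 11 tested genes of the IGF axis (median -0.05), and TNC the 1 called member of 17 tested mesenchymal genes (median 0.04). Over all genes 1.13% were called, and a single call does not describe its list. KCNK5, a potassium channel, NHSL1, an actin-regulating protein, and NUDT4, which cleaves diphosphoinositol polyphosphates, fell by 0.46, 0.42 and 0.40 on the log2 scale. These 6 calls and that of TRIM33 remained without any 1 library. The same rule of size named 8 more lower genes at -0.53 to -0.39, and each of these lost its call without at least 4 of the 6 libraries: NIBAN1, the MAP kinase phosphatase gene DUSP4, the macrophage growth factor gene CSF1, the protease inhibitor genes SLPI and TIMP3, the semaphorin gene SEMA6B, the galectin-3 ligand gene LGALS3BP and NOC4L. GFRA1, a receptor for GDNF, averaged 2.39 ± 0.31 CPM in sgT33-5 and 4.69 ± 0.522 CPM in NT3 (-0.97), and its call ended without sgT33-5 replicates 2 or 3 or NT3 replicates 1 or 2 (adjusted p = 0.0513 to 0.0676).

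Genes of the androgen response moved little between the lines without androgen. Of 97 tested members of the androgen response list 1 was called (1.03%, where 1.13% of all genes were), and the list's median log2 fold change was -0.00245 beside 0.00197 for all genes. The called member was PDLIM5, a PDZ and LIM domain protein, with 59.7, 61.8 and 59.8 CPM in sgT33-5, against 49.0, 52.1 and 50.9 CPM in NT3 (0.26). Its call ended without NT3 replicate 1 (adjusted p = 0.0616). KLK3 had 135, 141 and 141 CPM in sgT33-5, against 107, 122 and 138 CPM in NT3, so its groups overlapped (log2 fold change 0.18, 95% interval -0.13 to 0.49). Its close paralog KLK2, with which it may share reads, had 85.0, 112 and 104 CPM in sgT33-5, against 57.7, 82.3 and 81.2 CPM in NT3. The KLK2 groups did not overlap, and its log2 fold change of 0.45 (interval -0.10 to 0.997) was not called. KLK2 was called in 1 of 15 alternatives, the fit of the 6 libraries with the replicate block (adjusted p = 6.26e-06). With the block on all 12 libraries of 42D it was not called. The protease gene TMPRSS2 (-0.08, interval -0.20 to 0.05), the co-chaperone gene FKBP5 (-0.08, interval -0.18 to 0.02) and the pioneer factor gene FOXA1 (-0.00, interval -0.08 to 0.08) were not called. The interval of KLK2 came closest to a 2-fold difference, and those of the other genes named here stayed further from it.

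Androgen-repressed genes, which androgen holds down, gave 4 calls among 20 tested (20%, where 1.13% of all genes were called), 3 higher and 1 lower. This list was chosen with earlier results of these data known, so its share is a description only. CAMK2N1, an inhibitor of CaM kinase II, averaged 1084 ± 66.6 CPM in sgT33-5 and 867 ± 29.5 CPM in NT3 (0.32). ABCB11, the bile salt export pump, averaged 3.96 ± 0.889 CPM in sgT33-5 and 1.65 ± 0.373 CPM in NT3 (1.26), and CCN3, a secreted matricellular protein, 36.6 ± 3.13 CPM in sgT33-5 and 25.5 ± 0.97 CPM in NT3 (0.52). WNT5A, a ligand of non-canonical Wnt signalling, fell to 454 ± 40 CPM in sgT33-5, against 546 ± 24 CPM in NT3 (-0.26). The median of the list was 0.07. Only CCN3 remained called without any 1 library. ABCB11 lost its call without sgT33-5 replicate 2 (adjusted p = 0.108) or NT3 replicate 1 (0.103), WNT5A without sgT33-5 replicates 1 or 3 or NT3 replicates 2 or 3 (0.0908 to 0.152), and CAMK2N1 without any library but sgT33-5 replicate 3 (0.0842 to 0.153). Among genes that R1881 raised at least 2-fold in LNCaP NT3, a list chosen on other libraries, 4 of 237 tested were higher and 0 lower, with a median of 0.01. Among those it lowered at least 2-fold, 3 of 88 were higher and 0 lower, with a median of 0.02. These are 1.69% and 3.41% of the lists, where 0.896% of all genes were called higher.

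The lists of TRIM33 partners and of other pathways held few calls each. With 1.13% of all genes called, lists this short would hold few calls in any case, so an empty list says little. TRIM33 was the 1 called gene of 14 in its family and partner list, and SMAD4 stood at 0.00 with an interval of -0.11 to 0.11. None of 16 tested genes of the H2B ubiquitination machinery was called. RNF20 and RNF40, which form the ligase for lysine 120 of H2B, had log2 fold changes of -0.00 (interval -0.10 to 0.09) and 0.02 (-0.09 to 0.12). None of 33 TGF-beta and BMP targets was called either (median -0.02). The same held for 53 cell cycle genes (median -0.02), 23 genes of cholesterol synthesis (median -0.07) and 24 p53 targets (median 0.05), and over all 31 tested lists the medians were between -0.0726 and 0.0758. In fatty acid synthesis ACSL1, an acyl-CoA synthetase, was called lower (-0.24), and in the matrix list MMP16, a membrane-bound metalloprotease, higher (0.45), while TNFAIP2 of the NF-kB list was lower (-0.22). Each of these 3 calls ended without at least 2 of the 6 libraries, with adjusted p up to 0.153 for ACSL1, 0.136 for MMP16 and 0.273 for TNFAIP2. Of 670 tested genes in the union of the lists, 16 were called, a larger share than the 1.13% of all genes. The lists were chosen with earlier results of these data known, and 18 of the 31 held no call.

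**Figure D4:**
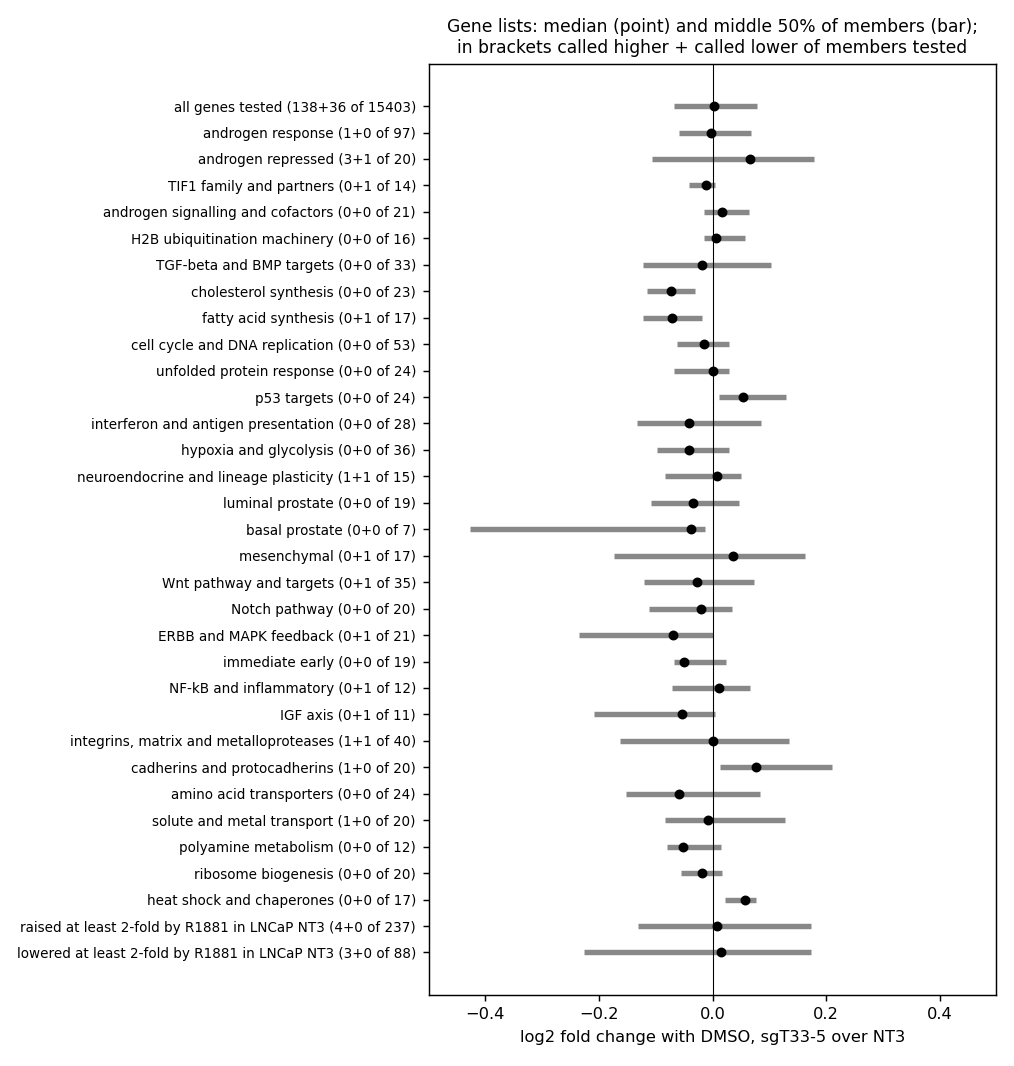
Median log2 fold change (point) and middle 50% of the members (bar) of each gene list with at least 5 tested members, for sgT33-5 over NT3 with DMSO. Brackets give the members called higher and lower of those tested, and the medians of the fixed lists lie between -0.0726 and 0.0758, beside 0.00197 for all genes.

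Most mitochondrially encoded genes were higher. Of 15 tested genes on that chromosome 9 were called, all higher, where 1.13% of all genes were called. MT-CO1, a subunit of cytochrome c oxidase, had 7328, 6706 and 6397 CPM in sgT33-5, against 5094, 5021 and 4668 CPM in NT3 (0.47). MT-ND4, a subunit of complex I, had 7623, 6827 and 6559 CPM in sgT33-5, against 5137, 4836 and 4574 CPM in NT3 (0.53). The groups did not overlap for either gene. The median over the 15 genes was 0.49 with DMSO and -0.18 with R1881, and for 7 of the 9 the difference between the treatments was itself called, though for none of them with the replicate block. With the mitochondrial share as a term these genes cannot differ much by construction, and values of genes elsewhere under that term were 2.07 for SERINC2, 3.74 for NKAIN1, 1.79 for PCDH7, 1.23 for ZBTB43, 0.77 for TRIB2, -0.90 for SYT4 and -0.64 for TRIM33. Of these, SERINC2, ZBTB43 and TRIB2 remained called. Without the mitochondrial genes in the fit, 165 of the other genes were called, the count found with them.

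The same lines were compared again with R1881, in 6 libraries that the first comparison does not use. There 79 genes were called (0.513% of those tested), 61 higher (0.396%) and 18 lower (0.117%). The count was 43 without sgT33-5 replicate 2 and 48 without NT3 replicate 3. Same-numbered libraries deviated together there (correlations 0.134, 0.126 and 0.218), which was taken as pairing, though the labels state none. With the replicate number as a block the count was 331, of which 215 were higher. The count of 79 and the overlaps below come from the fit without the block. Of the 138 genes higher with DMSO, 34 were also higher with R1881, which is 24.6% of the 138 and 55.7% of the 61. Of the 36 lower genes 11 were lower again (30.6% of the 36 and 61.1% of the 18), and none was called in the opposite direction. The 36 lower genes all had a negative value with R1881, with a median of -0.26. Of the 138 higher genes 72 had a positive value and 66 a negative one. Over all 15403 genes tested, 7584 values with R1881 were positive and 7819 negative.

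The 34 genes higher at both treatments had medians of 0.64 with DMSO and 0.61 with R1881, values that the calls themselves select. They include NKAIN1 (3.36 with DMSO and 2.85 with R1881), SERINC2 (1.92 and 1.59), PCDH7 (1.40 and 1.49), GNAI1 (1.37 and 1.25) and TRIB2 (0.62 and 0.53). NPTX1, a neuronal pentraxin named after its values were seen, had 18, 36 and 22 counts in sgT33-5 with DMSO and 0, 2 and 0 counts in NT3 with DMSO, and it was called with R1881 too. At so few counts in NT3 with DMSO, it passed the filter through other libraries and could be called with DMSO only as higher. The other 104 higher genes, 9 of them mitochondrial, had medians of 0.49 with DMSO and -0.07 with R1881. A gene called at 1 treatment alone is not shown to differ between them, and the difference of the effects, DMSO minus R1881, was called for 19 genes (0.123%), 15 positive (0.0974%) and 4 negative (0.026%). With the replicate block it was called for 196 genes, among them 12 of the 19, and the 7 that lost their call were all mitochondrial (adjusted p = 0.0538 to 0.14). Single libraries moved the count of 19 widely. It was 5 without NT3 with R1881 replicate 2 or 3, 8 without sgT33-5 with DMSO replicate 1 or 2 or sgT33-5 with R1881 replicate 2, and 9 without NT3 with DMSO replicate 1. It was 42 without NT3 with DMSO replicate 2, 66 without sgT33-5 with DMSO replicate 3 and 92 without NT3 with R1881 replicate 1.

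Named after its values were seen, RAB20, a small GTPase of the Rab family, had the lowest adjusted p of the 19 (0.000233), with a difference of -1.25. It had 11.6, 10.1 and 10.5 CPM in sgT33-5 with DMSO, against 10.4, 11.1 and 11.0 CPM in NT3 with DMSO, and 43.2, 52.9 and 50.2 CPM in sgT33-5 with R1881, against 20.5, 23.0 and 18.4 CPM in NT3 with R1881. The groups overlapped with DMSO and not with R1881, and the difference was called in all 12 omissions of 1 library. Among genes called with DMSO and outside the mitochondrial chromosome, ZBTB43 had the lowest adjusted p. It had 68.0, 66.2 and 56.3 CPM in sgT33-5 with R1881, against 50.3, 47.2 and 42.7 CPM in NT3 with R1881, a log2 fold change of 0.44 beside 1.13 with DMSO. Both lines had less ZBTB43 with R1881 than with DMSO in every library. The difference of 0.683 (SE 0.0991, adjusted p = 0.00806) remained called without each library but NT3 with R1881 replicate 2 (adjusted p = 0.0581). OTUD3, a deubiquitinase, stood at 0.48 with DMSO and 0.02 with R1881, a difference of 0.469 (SE 0.0893) that was called with all libraries. It lost its call without 8 of the 12 libraries taken 1 at a time, with adjusted p up to 0.158.

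**Figure D5:**
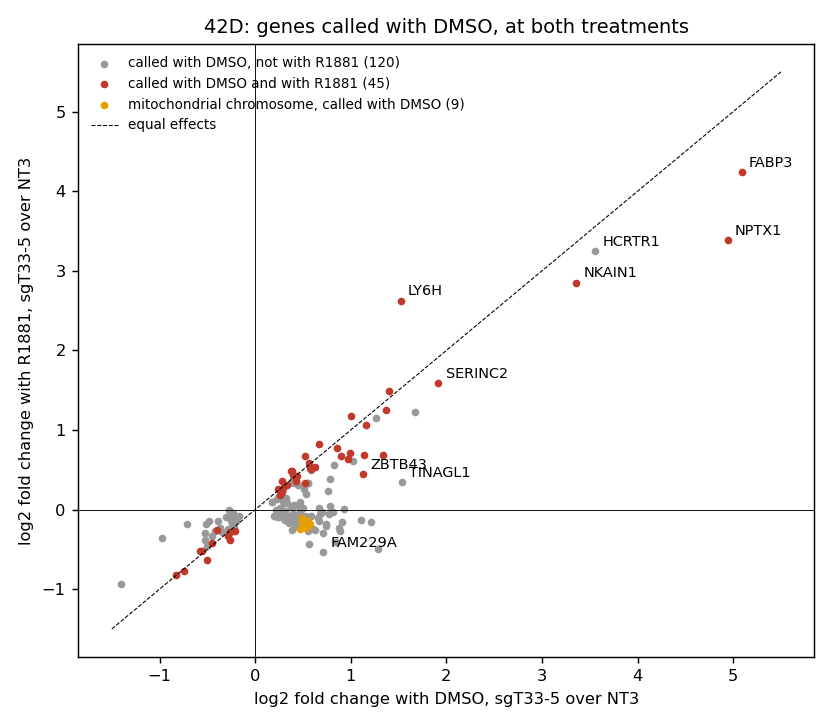
Log2 fold change (sgT33-5 over NT3) with DMSO on the x axis and with R1881 on the y axis for the 174 genes called with DMSO. The 45 genes called at both treatments lie on the same side of 0 in each, LY6H (1.52 with DMSO and 2.63 with R1881, named after its values were seen) lies above the line of equal effects, and the 9 mitochondrial genes lie below 0 with R1881.

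In LNCaP with DMSO, sgT33-5 was compared with NT3 in the same way, in 6 libraries of the parental line. LNCaP sgT33-5 replicate 3 stood apart with a mitochondrial share of 2.14%, where the other 2 libraries of its group had 4.97% and 5.73% and those of LNCaP NT3 5.7% to 6.66%. There 217 of 15519 genes were called (1.4%), 79 higher (0.509%) and 138 lower (0.889%), and 118 without that replicate (106 without sgT33-5 replicate 2 and 119 without NT3 replicate 1). TRIM33 had 46.1, 53.4 and 44.2 CPM in LNCaP sgT33-5, against 95.7, 89.0 and 95.1 CPM in LNCaP NT3. This log2 fold change of -0.96 beside -0.55 in 42D gave a difference (42D minus LNCaP) of 0.404 (SE 0.0993, adjusted p = 0.038). The difference lost its call without 8 of the 12 libraries taken 1 at a time, among them LNCaP sgT33-5 replicate 3 (0.34, adjusted p = 0.181).

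Of the 138 genes higher in 42D, 126 were tested in LNCaP, where 9 were higher and 4 lower. Only 33 of the 126 had a positive value there, and their median in LNCaP was -0.14, beside -0.00189 for all genes. Of the 36 lower in 42D, 31 were tested there, where 3 were lower and 0 higher, and 21 had a negative value. The 3 genes lower in both lines were TRIM33, SYT4 (-0.83 in 42D and -1.49 in LNCaP) and WNT5A (-0.26 and -0.50). Those higher in both include PCDH7 (1.40 and 2.91), ZBTB43 (1.13 and 1.19), ZBTB34 (0.56 and 0.38), SEMA3C, a secreted semaphorin (0.57 and 0.79), OTUD3 (0.48 and 0.46) and CAMK2N1 (0.32 and 1.52). The call of SEMA3C in 42D ended without 4 of the 6 libraries taken 1 at a time, with adjusted p up to 0.144, that of CAMK2N1 without 5 and that of WNT5A without 4, as given above. PCDH7 was at lower levels in LNCaP, with 5.97, 8.36 and 6.63 CPM in sgT33-5, against 0.818, 1.15 and 0.839 CPM in NT3. Called in opposite directions were MME, the membrane protease neprilysin (0.29 in 42D and -0.27 in LNCaP), AIDA (0.28 and -0.26), DSEL, related to dermatan sulfate epimerase (0.42 and -0.43), and FAM118A (0.44 and -0.59). In 42D the call of DSEL ended without any 1 library but sgT33-5 replicate 3 (adjusted p up to 0.214), and that of FAM118A without sgT33-5 replicates 1 or 2 or NT3 replicate 3 (up to 0.0637). For these 4 genes the difference between the cell lines was called in every one of 12 omissions of a single library. They were chosen for opposite calls in the same libraries, so a called difference was largely set by that choice and is a description.

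The difference itself, 42D minus LNCaP, was called for 132 of 16564 genes (0.797%), 101 positive (0.61%) and 31 negative (0.187%). Of the 138 genes higher in 42D, 25 had a positive difference and 3 a negative one, a balance to which their choice by a high value in 42D contributes. SERINC2 had 57.4, 54.4 and 56.0 CPM in LNCaP sgT33-5, against 61.0, 64.8 and 56.9 CPM in LNCaP NT3, and its difference of 2.03 (SE 0.137, adjusted p = 6.47e-11) was called in every omission of 1 library. NKAIN1 was at 0.0671 to 0.341 CPM in LNCaP sgT33-5 and 0.194 to 0.643 CPM in LNCaP NT3, and its difference of 4.31 lost its call without LNCaP NT3 replicate 1 (adjusted p = 0.216). None of the 28 genes tested in LNCaP within 1000 kb of SERINC2 was called there, where 1.4% of all genes were called. At that share so few genes would hold few calls or none, and FABP3 and HCRTR1 were not tested in LNCaP. For KLK3, with 495, 487 and 455 CPM in LNCaP sgT33-5 and 1348, 1400 and 1357 CPM in LNCaP NT3, the difference was 1.69 (adjusted p = 0.000834), so the lower KLK3 level of the LNCaP guide line without androgen had no counterpart of that size in 42D. JAG1, a Notch ligand, and IGF1R, the IGF-1 receptor, gave differences of 1.43 and 1.53, with values of -1.12 and -1.64 in LNCaP and of 0.32 and -0.10 in 42D, where neither was called. The cell-line counts moved with single libraries, to 61 without 42D sgT33-5 replicate 2, 66 without 42D sgT33-5 replicate 1, 72 without LNCaP sgT33-5 replicate 3, 72 without 42D NT3 replicate 3, 74 without 42D NT3 replicate 1 and 80 without LNCaP NT3 replicate 1.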

How the data were processed

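The authors deposited a table of whole-number read counts per gene, with Ensembl identifiers and symbols, for 36 RNA-seq libraries. Reads of 51 bp were processed with cutadapt and HISAT2 2.1.0 on GRCh38 (hg38), per the submitters' processing notes. The counting tool and its strand setting are not given in the sources used here. Groups were taken from the sample titles, and 0 columns were left unmapped.

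The test was that of edgeR 4.0.16 under R 4.3.3, run on the counts as deposited (TMM scaling, filterByExpr by group, robust quasi-likelihood F test, Benjamini-Hochberg adjustment over all genes tested, threshold 0.05). Effects in 42D were fitted on its 12 libraries, those in LNCaP on its 24 libraries (15519 genes) and the difference between cell lines on all 36 (16564 genes). SE is the absolute log2 fold change over the square root of F, intervals are at 95%, and CPM are TMM-scaled. The fit was tested on simulated data.

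Genes named are a panel of 24, the calls with the highest and lowest fold changes at a mean of at least 5 CPM, the called members of gene lists with the largest change, the most different calls between treatments and cell lines or shared by the cell lines, and runs of at least 3 called neighbours with the genes beside them. Some panel genes are not reported here. NPTX1, SHH, LY6H, MALAT1, NEAT1, RAB20, SMOC2, PTPRN2 and KRT8 were chosen after their values were seen. The members and lists were chosen with earlier results of these data known. Replicate numbers in the titles recur across groups. With R1881 all 3 same-numbered pairs of 42D libraries deviated together (correlations 0.134, 0.126 and 0.218), which was taken as pairing. With DMSO all 3 were positive but 2 were under 0.1, and pairing there was left unsettled. No main fit used the block. Alternatives were DESeq2 1.42.0, RLE scaling, filters on low counts (none, or 1 CPM in 3 libraries), the replicate block, fits on the 6 libraries compared, omission of each library, omission of mitochondrial genes and, added after the data were seen, the mitochondrial share as a term. Promoters came from RefSeq (GRCh38.p14), and coordinates of genes follow GENCODE on GRCh38.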

Additional observations from a re-analysis of the deposited data

Results flagged for a closer look

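Differences between the sgT33-5 and NT3 lines that changed with the condition, by the interaction term of edgeR, are collected here as values. With DMSO minus with R1881 in 42D, the log2 difference was 0.683 for ZBTB43, 0.469 for OTUD3, 0.762 for MT-ND4L, 1.25 for FAM229A, 0.817 for CSAD, which makes taurine precursors, and 0.999 for RNF207. Of these, ZBTB43 was called in 11 of 12 omissions of a single library, MT-ND4L in 9, FAM229A in 6, OTUD3 and RNF207 in 4 each and CSAD in 2. With the replicate block MT-ND4L lost its call (adjusted p = 0.0805) and the other 5 remained, and none of the 6 was called with the mitochondrial share as a term. Named after their values were seen, the 4 called negative differences were -1.25 for RAB20 (called in 12 of 12 omissions), -0.691 for SMOC2 (8), -0.625 for PTPRN2 and -0.336 for KRT8 (3 each), all of genes not called with DMSO.

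Between 42D and LNCaP with DMSO, several differences were called in all 12 omissions of a single library. They were 2.03 for SERINC2, 1.69 for KLK3, 1.43 for JAG1, 1.29 for COL16A1, 1.1 for CEROX1, 1.03 for FAM118A, 0.85 for DSEL, 0.693 for the antiproliferative gene BTG1, 0.559 for MME and 0.54 for AIDA. FAM118A, DSEL, MME and AIDA were chosen for opposite calls in the cell lines, which favours a called difference. Negative differences of this kind were -1.3 for PLA2G2A, a secreted phospholipase, -1.2 for CAMK2N1 and -0.911 for IGFBP5.

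The other cell-line differences depended on at least 1 library. They were 4.31 for NKAIN1 and 1.53 for IGF1R (called in 11 omissions each), -1.52 for PCDH7 (10), 0.398 for PDLIM5 (9), 1.29 for FAM229A (8), 1.06 for GNAI1 (6), 1.45 for KRTCAP2 and 1.85 for TINAGL1 (5 each), 0.404 for TRIM33 (4) and -2.46 for GFRA1 (0). GFRA1 did not pass the filter on low counts in the LNCaP fit, and TINAGL1 averaged 1.06 CPM in LNCaP sgT33-5 and 1.37 CPM in LNCaP NT3. LNCaP sgT33-5 replicate 3, whose mitochondrial share stood apart, is in every one of these differences, and its part in them was not tested beyond its omission. No outlying sample can be called in groups of 3.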

How the results depend on the processing

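The count of 174 genes with DMSO was 206 by DESeq2, 173 with RLE scaling and 172 on the 6 libraries alone, but 438 with no filter on low counts, 665 with the replicate block, 480 with the block on the 6 libraries, and 3 with the mitochondrial share as a term. With the block 69% of the calls were higher, against 79.3% without it. With DMSO the same-numbered libraries deviated together less than with R1881 (correlations 0.0873, 0.0999 and 0.186). Yet 12 of 12 42D libraries correlated best with their own number, a hint from the data and not from the design. Whether the DMSO libraries are paired is therefore not settled, and the count of 174 comes from a fit without the block. The counts with R1881 (79), for the treatment difference (19), in LNCaP (217) and for the cell-line difference (132) were 222, 168, 391 and 459 with no filter and 331, 196, 774 and 580 with the block. The treatment and cell-line differences gave 63 and 239 by DESeq2. Fitted on the compared libraries alone, the LNCaP count was 231 and that of the cell-line difference 181. With the mitochondrial share as a term the R1881 count was 19 and that of the treatment difference 0, by edgeR. Without 1 library at a time the counts ran from 66 to 244 with DMSO, 43 to 74 with R1881, 5 to 92 for the treatment difference, 106 to 170 in LNCaP and 61 to 188 for the cell-line difference.

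Of 67 named calls with DMSO, RLE scaling and the replicate block kept 67, DESeq2 kept 64 of the 65 it tested (TIMP3 was lost at an adjusted p of 0.0636) and the mitochondrial term kept 3. Under that term 6 genes turned negative, FAM118A (-0.12), FAM229A (-0.0242), KRTCAP2 (-0.46), MT-ATP6 (-0.0485), MT-CO3 (-0.00549) and MT-ND2 (-0.0456), and the cause was not tested. The share was confounded with the line in these 6 libraries, so that the term also takes up differences between the lines. Genes with few counts, such as FABP3 and NPTX1, have wide intervals at this depth, and intervals on counts cover counting error only.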

Other observations

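Genes chosen after their values were seen add to the groups above. SHH, the ligand of hedgehog signalling, had 2.66, 2.51 and 2.53 CPM in sgT33-5 with DMSO, against 0.955, 0.415 and 0.995 CPM in NT3 with DMSO, a log2 fold change of 1.67. LY6H, a GPI-anchored protein of the Ly6 family, had 1.73, 1.25 and 1.63 CPM in sgT33-5 with DMSO, against 0.358, 0.692 and 0.56 CPM in NT3 with DMSO (1.52). Both were called by edgeR. Their NT3 levels are low, so they may have passed the filter on low counts through the libraries where they are higher. Their calls are therefore a description.

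The nuclear RNAs MALAT1 and NEAT1 averaged 554 ± 97.3 and 115 ± 25.2 CPM in sgT33-5 with DMSO and 363 ± 45 and 64.6 ± 13.2 CPM in NT3 with DMSO. Their groups did not overlap, and neither was called (log2 fold changes of 0.61 and 0.84). With R1881 the values were -0.41 for both genes. Among the 82 protein-coding genes outside the mitochondrial chromosome that were called higher with DMSO and not with R1881, the median share of annotated transcripts with a retained intron was 25.6%. It was 2.17% among the 32 protein-coding genes called higher at both treatments and 11.1% among all protein-coding genes tested. The lower and upper quartiles overlapped, at 7.27% and 40%, 0% and 20%, and 0% and 27.3% in that order. The sets also differed in median gene span, at 22.4, 170 and 35.3 kb. The retained-intron shares come from the annotation and not from the reads, and intron retention was not measured here.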
